A study of Mus musculus with 12 samples.

Results

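The 10 genes described here code for the inflammasome and for the form of cell death it starts, pyroptosis: the sensors Nlrp3, Nlrp10, Nlrc4, Aim2, Mefv and Nod2, the adaptor Pycard, the caspases Casp1 and Casp4, and the pore former Gsdmd. They were taken by gene symbol from a table of 18771 genes, and all 10 were found, had values in all 12 libraries and passed the filter on low counts. Messenger RNA was sequenced from cardiac fibroblasts of the left ventricle of mice, isolated 3 days after the left anterior descending artery had been tied off for good to cause myocardial infarction (MI). The 6 Pfas CKO libraries came from PDGFRa CreER/+;Pfas fl/fl mice and the 6 control libraries from PDGFRa CreER/+;Pfas fl/+ mice, and the study asked what Pfas, an enzyme of purine synthesis, does in fibroblasts in vivo. Both groups therefore carried the Cre, at least 1 floxed Pfas allele and an infarct, and the control mice kept an allele that Cre cannot cut. CreER is active only with tamoxifen and in cells that express PDGFRa, which in the heart are mainly fibroblasts, so other cells carried over in the isolation are not its target. The labels state tamoxifen for Pfas CKO mice, on days 7 and 3 ahead of MI and again on day 1 of the infarct. For control mice neither the labels nor the files mention it, so tamoxifen and genotype cannot be told apart. No age of the mice is stated.

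An inflammasome is a protein platform that forms when a sensor in the cytosol meets a microbial product or a sign of cell damage. Most sensors recruit the adaptor ASC, the product of Pycard, which in turn gathers caspase-1. Caspase-1 cuts the precursors of interleukin-1β and interleukin-18 and frees the pore-forming end of gasdermin D, and the mouse Casp4 product, known as caspase-11, cuts gasdermin D when it binds lipopolysaccharide inside the cell. Transcription of several of these genes, Nlrp3 above all, is a priming step that precedes assembly, and RNA levels say nothing of assembly or cleavage. In the infarcted heart these genes are studied in fibroblasts and in the macrophages and neutrophils that enter the scar.

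The libraries held 20320133 to 20950074 estimated counts each. Pfas averaged 11.2 CPM (counts scaled to the library size after TMM normalization) in Pfas CKO, with a range of 8.03 to 17.4, against 23.3 CPM in control, with a range of 22.4 to 24.9, which follows the labels. Libraries stood in near-identical sets: the mean chi-square per gene between libraries of a set was 1.68 to 5.22, against 17.5 to 39.9 between sets of the same group and 169 to 253 between groups. The sets were control 1 to 3, control 4 to 6, and Pfas CKO 1, 3, 5 and 6, and neither Pfas CKO 2 nor Pfas CKO 4 belonged to a set. The labels do not say that libraries came from separate mice, so the p-values rest on a spread that may be technical, and results are also given with each set summed into 1 sample (2 control samples against 3 Pfas CKO samples). The 10 fibroblast markers summed to 14269 to 17098 CPM in Pfas CKO and 17890 to 20892 CPM in control, a sum led by collagens. Of the 10, 5 (Dcn, Lum, Dpt, Tcf21 and Postn) were higher and 5 (Col1a1, Col1a2, Col3a1, Pdgfra and Pdgfrb) lower in Pfas CKO. Pdgfra, the gene named in the Cre line, averaged 121 CPM in Pfas CKO and 210 CPM in control. The 15 macrophage and monocyte markers summed to 5510 to 7503 CPM in Pfas CKO and 6282 to 6832 CPM in control, so the preparations held transcripts of both cell types. In such bulk RNA, fewer cells of a type and less RNA per cell cannot be told apart.

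Nlrp3, Mefv and Nod2 transcripts were 8.72, 3.19 and 2.84 times as abundant in Pfas CKO as in control, by ratio of mean CPM, and Casp4 and Casp1 were 1.90 and 1.33 times as abundant. Nlrp10 was nearly lost in Pfas CKO, Nlrc4 and Pycard were modestly lower, and the differences of Aim2 and Gsdmd did not pass the test. In edgeR's quasi-likelihood test with Benjamini-Hochberg adjustment over 13600 genes, 8 of the 10 genes passed an adjusted p of 0.05, where 68.6% of all genes tested did. Of the 8, 5 rose, beside 33.4% of all genes, and 3 fell, beside 35.2%. At a fold of at least 2, 4 of the 10 were called, against 13.1% of all genes. The CPM ranges of both groups were apart for 5 of the 10, against 47.1% of all genes. The number called lay near the background for the plain test, and the 10 genes differed mainly in the size and direction of their changes. The median log2 fold change was 0.28 over the 10 genes and -0.02 over all genes tested. With library totals in place of TMM scaling these medians were 0.05 over the 10 genes and -0.26 over all genes. With the near-identical libraries summed, 5 of the 10 were called (4 higher, 1 lower), where 37.2% of 15231 genes were.

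**Figure D1:**
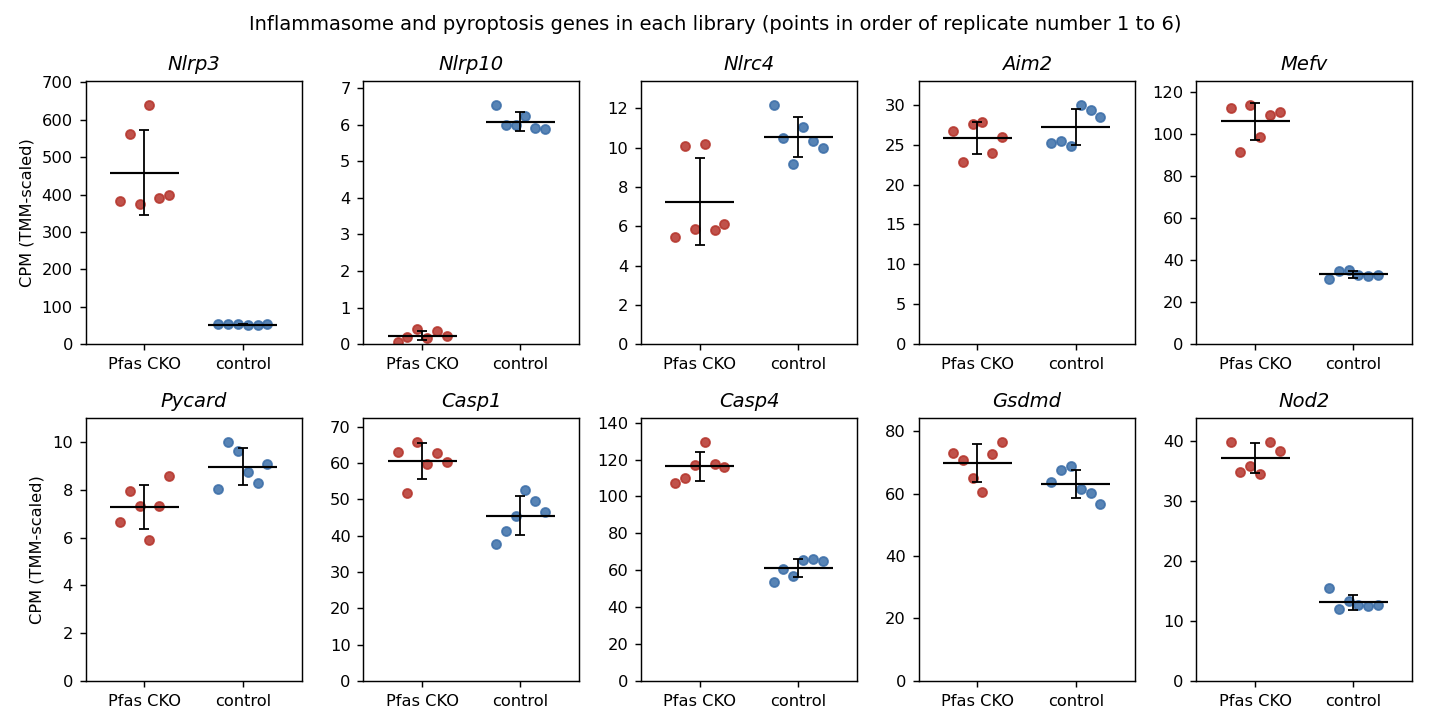
CPM (TMM-scaled, linear axes from 0) of the 10 genes in each Pfas CKO library (left) and control library (right); the long bar is the mean and the error bar the SD of 6 libraries. Nlrp3, Mefv, Nod2 and Casp4 lie above control in all 6 Pfas CKO libraries, Nlrp10 lies below it in all 6, and Pfas CKO 2 and 4 form the upper pair for Nlrp3 and Nlrc4.

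Nlrp3 encodes the sensor that answers potassium efflux, membrane damage and crystals, and lies on chromosome 11 from 59541568 to 59566956 (GRCm38, plus strand). The Pfas CKO libraries held 384, 561, 375, 640, 392 and 399 CPM in the order 1 to 6, against 53.0, 53.0, 53.8, 50.9, 51.3 and 53.5 CPM in the control libraries. No Pfas CKO library came near the control range, and the 6 control libraries lay close together. The means were 458 ± 113 CPM in Pfas CKO and 52.6 ± 1.19 CPM in control (SD, n = 6 each). This is a log2 fold change of 3.12 ± 0.130 (SE), and edgeR gave an adjusted p of 1.49e-11. The wide spread in Pfas CKO came from libraries 2 and 4, which stood above the other 4 (375 to 399 CPM). Without them the log2 fold change was 2.87, and with near-identical libraries summed it was 3.33, with an edgeR adjusted p of 5.54e-06.

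Transcription of Nlrp3 and of Casp4 is known to be induced through NF-κB in mouse macrophages, so the bases around the starts of the genes were searched for the NF-κB consensus on both strands. RefSeq windows of GRCm38.p6, from 250 bases before to 50 after a transcript start, were found for 8 of the 10 genes, in 10 windows. The consensus occurred in 4.51% of 32851 windows of the same length over the genome, in the more upstream of the 2 Nlrp3 windows and in both overlapping Casp4 windows. The windows of Mefv and Nod2, whose folds were larger than that of Casp4, held 0 matches. The same was true of Aim2, Pycard, Casp1 and Nlrc4 and of the other Nlrp3 window, and no window was found for Nlrp10 and Gsdmd. A motif bound by interferon regulatory factors, GAAANNGAAA, occurred in 3.44% of all windows and in 0 of the 10. The windows of Nlrp3 (chr11:59541319-59541618), Casp4 (chr9:5308599-5308898) and Casp1 (chr9:5298267-5298566), all on the plus strand, are given 5′ to 3′, the first and second because they hold the match and the last because Casp1 is the neighbour of Casp4 with a smaller fold change. They were chosen after the values were seen, and capitals mark the match.
Nlrp3: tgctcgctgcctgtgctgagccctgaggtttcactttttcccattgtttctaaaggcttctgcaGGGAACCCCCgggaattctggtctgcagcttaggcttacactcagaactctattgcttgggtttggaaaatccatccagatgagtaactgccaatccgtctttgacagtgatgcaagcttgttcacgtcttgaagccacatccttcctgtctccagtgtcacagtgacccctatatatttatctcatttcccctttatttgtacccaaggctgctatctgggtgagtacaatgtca
Casp4: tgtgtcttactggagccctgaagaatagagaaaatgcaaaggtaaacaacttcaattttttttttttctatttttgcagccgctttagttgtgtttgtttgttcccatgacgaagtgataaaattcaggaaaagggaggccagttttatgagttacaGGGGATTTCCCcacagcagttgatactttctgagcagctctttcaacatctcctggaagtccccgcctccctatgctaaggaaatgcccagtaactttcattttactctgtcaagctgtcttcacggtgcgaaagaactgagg
Casp1: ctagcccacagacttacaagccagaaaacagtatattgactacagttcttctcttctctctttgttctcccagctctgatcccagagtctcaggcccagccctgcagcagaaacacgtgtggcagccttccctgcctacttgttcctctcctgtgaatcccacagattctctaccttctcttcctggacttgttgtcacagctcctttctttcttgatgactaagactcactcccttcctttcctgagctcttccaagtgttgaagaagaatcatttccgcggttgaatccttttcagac
The Nlrp3 match, GGGAACCCCC, lies at positions -186 to -177 from the transcript start. The Casp4 window holds overlapping matches, GGGGATTTCC and GGGATTTCCC, between positions -93 and -83. A match is a run of letters and not a measured binding site, and the Casp1 window only lacks these letters.

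Mefv encodes pyrin, the sensor that reacts when bacterial toxins switch off RhoA (chromosome 16, 3707218 to 3718097, minus strand). It had 91.7, 110 and 114 CPM (lowest, median and highest) in Pfas CKO, against 31.2, 32.8 and 35.4 CPM in control. The groups lay far apart, and libraries 2 and 4, the highest for Nlrp3, were here the lowest of the Pfas CKO libraries with 91.7 and 99.0 CPM. In log2 terms the change was 1.67 ± 0.0605, with an edgeR adjusted p of 2.76e-12.

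Nod2 encodes a receptor for muramyl dipeptide, a fragment of the bacterial cell wall, that signals to NF-κB through the kinase Ripk2 rather than through caspase-1 (chromosome 8, 88647315 to 88688474, plus strand). Its levels were 34.6, 37.0 and 39.9 CPM (lowest, median and highest) in Pfas CKO, against 12.1, 12.6 and 15.4 CPM in control. All 6 Pfas CKO libraries held more than the highest control library. It rose by 1.504 ± 0.0681 on the log2 scale, with an edgeR adjusted p of 3.84e-11. Ripk2 rose with it, to 87.3 ± 7.17 CPM in Pfas CKO against 40.3 ± 4.49 CPM in control (SD, n = 6 each).

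Nlrp10 encodes an NLR protein that lacks the leucine-rich repeats other members use for sensing, and it moved opposite to Nlrp3. It lies on chromosome 7 from 108921852 to 108930178 on the minus strand. The Pfas CKO libraries held 0.0532, 0.209, 0.427, 0.163, 0.362 and 0.212 CPM in the order 1 to 6, against 6.54, 5.98, 5.98, 6.23, 5.90 and 5.87 CPM in the control libraries. These are 1.00 to 7.99 estimated counts per library in Pfas CKO and 132 to 149 in control, so the gene was close to the level of 3 counts in Pfas CKO. Over the 6 libraries of a group, 27 counts in Pfas CKO stood against 822 in control. After scaling for library size and TMM factor, control libraries held 25.5 times the Nlrp10 level of Pfas CKO libraries, with an exact 95% interval of 17.4 to 38.9 that covers counting error only. The log2 fold change in the fit was -4.64 ± 0.196, with an edgeR adjusted p of 1.85e-11. With near-identical libraries summed it was -4.68, with an edgeR adjusted p of 1.93e-06, and leaving out any single library kept it between -4.87 and -4.43. Among the 10 genes it was the single one called lower in the summed fit.

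Nlrc4 encodes the sensor that assembles with Naip proteins bound to flagellin or secretion-system parts (chromosome 17, 74425438 to 74459142, minus strand). Pfas CKO libraries 1 to 6 held 5.45, 10.1, 5.88, 10.2, 5.83 and 6.14 CPM, against 12.2, 10.5, 9.17, 11.1, 10.4 and 9.996 CPM in control libraries 1 to 6. The Pfas CKO libraries thus fell into 2 levels: 1, 3, 5 and 6 lay below every control library, and 2 and 4 lay inside the control range. The log2 fold change was -0.54 ± 0.155, with an edgeR adjusted p of 0.00638. Without Pfas CKO 2 and 4 it was -0.87 with an adjusted p of 9.69e-07 in edgeR, and with near-identical libraries summed it was -0.30 with an adjusted p of 0.321, so its call rests on counting the near-identical libraries separately. A pseudogene, CT033749.1, overlaps 355 bases of Nlrc4 on the same strand, and how reads were divided between them is not stated.

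Aim2 encodes a sensor of double-stranded DNA in the cytosol (chromosome 1, 173350879 to 173466040, plus strand). It had 22.9, 26.3 and 27.9 CPM (lowest, median and highest) in Pfas CKO, against 24.9, 26.9 and 30.0 CPM in control, and the groups overlapped. Its log2 fold change was -0.08 ± 0.0683, with an edgeR adjusted p of 0.340. Control 4 to 6 (28.5 to 30.0 CPM) stood above control 1 to 3 (24.9 to 25.4 CPM). Against control 4 to 6 alone Aim2 was called lower in Pfas CKO, with a log2 fold change of -0.18 and an edgeR adjusted p of 0.0339, and against control 1 to 3 alone the value was 0.038 with an adjusted p of 0.649. The annotated gene overlaps Cadm3 on the opposite strand by 16817 bases, and no source states whether counting used strand.

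Pycard, the adaptor that links Nlrp3, pyrin and Aim2 to caspase-1, did not share the rise of Nlrp3 and Mefv (chromosome 7, 127989708 to 127993867, minus strand). It had 5.91, 7.32 and 8.57 CPM (lowest, median and highest) in Pfas CKO, against 8.02, 8.92 and 10.02 CPM in control, with overlapping ranges. In log2 terms the change was -0.30 ± 0.0919, with an edgeR adjusted p of 0.00923. The call did not hold against control 4 to 6 alone (-0.26, edgeR adjusted p 0.0549) or with near-identical libraries summed (-0.32, edgeR adjusted p 0.141). Pycard overlaps an unclassified transcript, Gm45205, by 599 bases on the opposite strand.

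Casp1 and Casp4 are neighbours on the plus strand of chromosome 9, at 5298517 to 5307265 and at 5308828 to 5336783, with 1563 bases between them. Casp4 had 107, 116 and 130 CPM (lowest, median and highest) in Pfas CKO, against 53.8, 62.7 and 65.9 CPM in control, and the groups were well apart. Its log2 fold change was 0.92 ± 0.0631, with an edgeR adjusted p of 4.72e-09. Casp1 had 51.7, 61.6 and 65.9 CPM in Pfas CKO, against 37.7, 46.0 and 52.7 CPM in control. The lowest Pfas CKO library of Casp1, number 2, lay below the highest control library, number 4. The log2 fold change of Casp1 was 0.41 ± 0.0792, with an edgeR adjusted p of 0.000263. Its call was lost with near-identical libraries summed (0.36, edgeR adjusted p 0.0639) and on log2(TPM + 1) values tested with limma (0.13, adjusted p 0.139). Casp4 stayed called in the summed fit (0.95, edgeR adjusted p 0.000498). Casp12, named after its values were seen as the next gene along at 8647 bases from Casp4, was also higher, with a log2 fold change of 0.43 ± 0.140 (edgeR adjusted p 0.0133), a call that was lost with near-identical libraries summed (adjusted p 0.109).

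Gsdmd, whose product forms the membrane pore of pyroptosis, lies on chromosome 15 from 75862327 to 75867408 on the plus strand. It had 60.4, 71.7 and 76.6 CPM (lowest, median and highest) in Pfas CKO, against 56.7, 62.6 and 68.7 CPM in control, and the groups overlapped. The log2 fold change was 0.15 ± 0.0649, with an edgeR adjusted p of 0.0575. Its sign depended on the scaling. With library totals alone it was -0.087, while the median of all genes was -0.26. It was called higher against control 4 to 6 alone (0.23, edgeR adjusted p 0.0173), and without Pfas CKO 2 and 4 (0.18, edgeR adjusted p 0.0248).

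**Figure D2:**
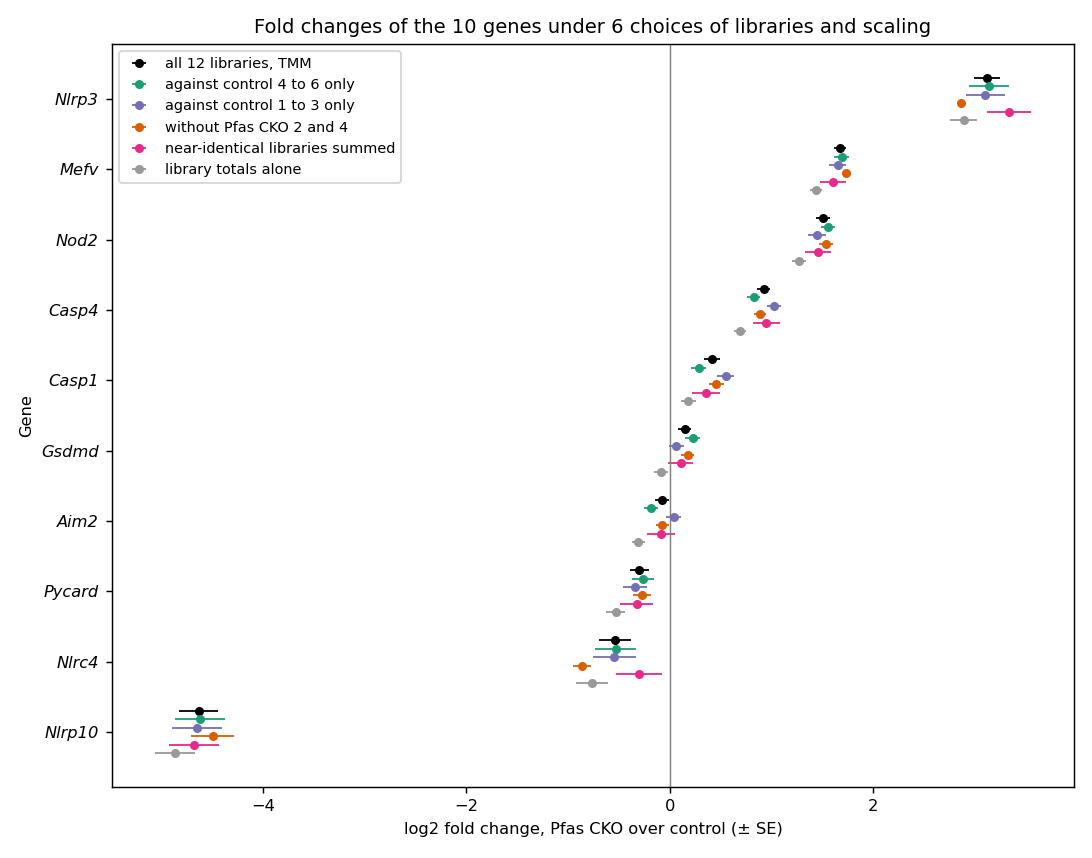
Log2 fold changes, Pfas CKO over control, with SE for the 10 genes under 6 choices of libraries and scaling (colours), all from edgeR's quasi-likelihood test. Nlrp3, Mefv, Nod2, Casp4 and Nlrp10 keep their side of 0 under each, while Gsdmd and Aim2 cross it.

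Some of the 10 genes also differed between the control sets, which share a genotype. Their deposited values differ in kind: 60.9 to 61.5% of values above 0 were whole numbers (within 0.005) in control 1 to 3 and 17.3 to 18.2% in control 4 to 6, and 774 genes were blank in control 1 to 3 and 743 in control 4 to 6. In the Pfas CKO libraries 19.98 to 26.7% of values above 0 were whole numbers, and 0 genes were blank. Blank genes thus occurred in control libraries only, so this difference in kind cannot be told apart from genotype. The part of such differences in kind was not tested, either between the control sets or between Pfas CKO and control. Control 4 to 6 against control 1 to 3 called 4 of the 10 genes in edgeR, where 45.5% of 13727 genes were called. Casp1 was higher in control 4 to 6 by a log2 of 0.25 (adjusted p 0.00115), Aim2 by 0.20 (adjusted p 0.00302) and Casp4 by 0.18 (adjusted p 0.00137), in edgeR's test. Gsdmd was lower there, with a log2 fold change of -0.18 and an edgeR adjusted p of 0.00128. The differences of Gsdmd and Aim2 between Pfas CKO and control were smaller than those between the control sets, and that of Casp1 was 1.68 times as large. For Casp4 the ratio was 5.06. For Pycard it was 3.13, for Nod2 11.5, for Nlrc4 14.7, for Mefv 28.0, for Nlrp3 59.6 and for Nlrp10 90.3. The control sets did not differ by the test for these last genes, with log2 differences of -0.13 (Nod2) to -0.036 (Nlrc4). Their ratios thus divide by values near 0 and are uncertain.

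Levels of different genes can be compared only per length, in TPM (transcript abundance corrected for gene length), and on that scale the order of the 10 genes changed. In Pfas CKO, Nlrp3 led with 229 ± 53.7 TPM, ahead of Casp4 with 168 ± 10.9 TPM, and the ranges of both were apart. Casp1 (80.5 ± 7.68 TPM) overlapped Gsdmd (79.6 ± 6.83 TPM), which overlapped Mefv (65.9 ± 6.62 TPM). Aim2 (17.4 ± 1.90 TPM) and Nod2 (15.8 ± 1.21 TPM) overlapped as well, and Pycard (6.78 ± 0.843 TPM), Nlrc4 (3.65 ± 1.08 TPM) and Nlrp10 (0.103 ± 0.0621 TPM) closed the order, each apart from the next (SD, n = 6 for each gene).

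In control, Casp4 led with 108 ± 5.86 TPM, ahead of Gsdmd (87.9 ± 8.13 TPM) and Casp1 (73.6 ± 7.51 TPM), whose ranges overlapped. Nlrp3 was the fourth with 32.0 ± 1.39 TPM, followed by Mefv (25.1 ± 1.39 TPM) and Aim2 (22.7 ± 1.48 TPM), which overlapped each other. Pycard had 10.2 ± 0.941 TPM, Nod2 6.80 ± 0.787 TPM, Nlrc4 6.44 ± 0.710 TPM and Nlrp10 3.25 ± 0.204 TPM (SD, n = 6 for each gene), of which Nod2 and Nlrc4 overlapped. Nlrp3 thus stood above both caspases and the pore former in Pfas CKO and below them in control. It made up 29.7 to 42.0% of the summed TPM of the 10 genes in Pfas CKO libraries and 7.86 to 9.20% in control libraries. The ratio of Nlrp3 to its adaptor Pycard was 24.99 to 58.0 in Pfas CKO and 2.83 to 3.55 in control, in TPM. The ratio of Casp4 to Casp1 was 1.85 to 2.35 in Pfas CKO and 1.35 to 1.61 in control. Aim2, Nlrc4 and Pycard, which overlapped in CPM, were lower in TPM in all Pfas CKO libraries than in all control libraries. Aim2, for one, was 14.5 to 19.3 TPM in Pfas CKO and 21.3 to 24.7 TPM in control. Casp1 and Gsdmd overlapped on both scales. TPM carries no TMM scaling, and on log2(TPM + 1) values the median log2 fold change of all genes was -0.28.

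**Figure D3:**
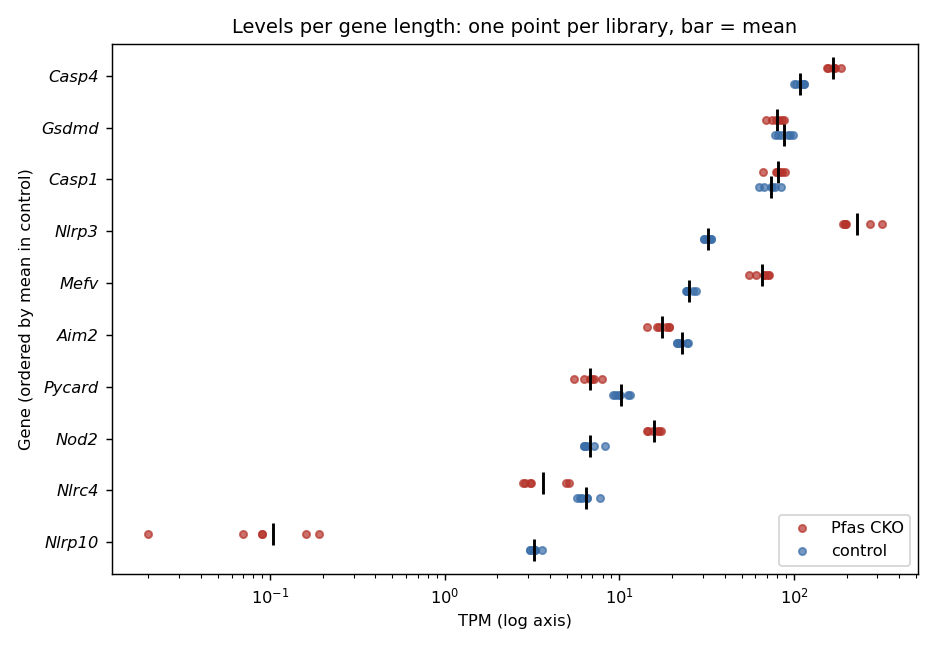
TPM of the 10 genes on a log axis, 1 point per library, with Pfas CKO above control in each row and a bar at the mean. Nlrp3 averages 229 TPM in Pfas CKO and 32.0 TPM in control, and Nlrp10 averages 0.103 TPM in Pfas CKO and 3.25 TPM in control.

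Macrophages and neutrophils express most of these genes, and their markers did not move as 1 block. Of the 15 macrophage and monocyte markers 6 were higher in Pfas CKO, among them C1qb and Cd163, and 6 were lower, among them Mertk and Ccr2. Set against the summed markers, Nlrp3 stood at 53.2 to 116 CPM per 1000 CPM of markers in Pfas CKO and at 7.62 to 8.43 in control. On the same scale Mefv was 14.5 to 18.0 in Pfas CKO and 4.801 to 5.49 in control, and Nod2 was 5.10 to 6.27 in Pfas CKO and 1.82 to 2.45 in control. Casp4 was 15.3 to 23.5 in Pfas CKO and 8.56 to 9.97 in control, and Nlrp10 was 0.0076 to 0.0616 in Pfas CKO and 0.859 to 1.04 in control. These 5 genes had ranges apart as they did in CPM. Casp1, which overlapped in CPM, was apart on this scale, at 8.05 to 10.9 in Pfas CKO and 5.997 to 7.99 in control, while Nlrc4, Aim2, Pycard and Gsdmd overlapped. The summed markers did not move with the rise of Nlrp3, Mefv, Nod2 and Casp4, since their range in Pfas CKO covered that in control. Dendritic cell markers (7 genes) summed to 94.3 to 141 CPM in Pfas CKO and 31.5 to 36.2 CPM in control, with 5 of 6 tested higher and 1 lower. Ccr7 alone averaged 57.2 CPM in Pfas CKO and 12.9 CPM in control. The lower one, Siglech, averaged 0.623 CPM in Pfas CKO and 3.46 CPM in control. Cd209a, which was not tested, was also lower in all Pfas CKO libraries than in all control libraries. Erythroid markers summed to 129 to 211 CPM in Pfas CKO and 8.60 to 9.52 CPM in control, with 5 of 5 tested higher. Cardiomyocyte markers summed to 33.6 to 40.7 CPM in Pfas CKO and 12.5 to 14.5 CPM in control (6 of 6 tested higher), and endothelial markers to 705 to 925 CPM in Pfas CKO and 663 to 699 CPM in control (6 of 7 tested higher). The part of these cells in the results was not tested.

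The 13 neutrophil markers summed to 140 to 239 CPM in Pfas CKO and 236 to 260 CPM in control. In control 58.5 to 65.9% of that sum was Mmp8, which was 11.8 to 17.3% of it in Pfas CKO. Of the 7 markers that could be tested, 4 were higher in Pfas CKO and 2 lower. The granule genes Elane, Ngp and Camp and the surface marker Ly6g were at or near 0, with at most 0.123 CPM of Ly6g in Pfas CKO and 0.451 CPM in control. Other genes of the list were higher in Pfas CKO. S100a8 was 11.5 to 32.7 CPM in Pfas CKO and 3.77 to 4.56 CPM in control, and S100a9 was 23.7 to 56.2 CPM in Pfas CKO and 2.27 to 3.77 CPM in control. The granule gene Ltf was 2.04 to 3.14 CPM in Pfas CKO and 0.355 to 1.01 CPM in control, and Mmp9 was 11.7 to 27.7 CPM in Pfas CKO and 7.36 to 8.95 CPM in control. The 2 lower markers were Mmp8 and Csf3r. Mmp8 was 20.6 to 41.3 CPM in Pfas CKO and 138 to 171 CPM in control. Csf3r was 60.6 to 71.5 CPM in Pfas CKO and 67.2 to 75.9 CPM in control. The granule gene Mpo, which was not tested, was 0.0530 to 0.323 CPM in Pfas CKO and 0.446 to 0.892 CPM in control. The part of neutrophil transcripts in the results was not tested.

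Pfas CKO 2 and 4 differed from the other 4 Pfas CKO libraries in a way that split the 10 genes. Both stood above the others for Nlrp3 and Nlrc4, and both stood below them for Mefv, Casp1 and Nod2, which makes 5 of 10 genes with both on 1 side. Over all genes tested both stood above in 17.9% and below in 19.4%. These libraries also held the highest neutrophil marker sums of the group, with 239 CPM in library 2, 204 CPM in library 4 and 140 to 145 CPM in the rest. Their macrophage marker sums were the lowest, at 6323 CPM in library 2 and 5510 CPM in library 4, where the rest held 6924 to 7503 CPM. Endothelial sums were lower too, at 705 CPM in library 2 and 715 CPM in library 4, with 896 to 925 CPM in the rest. Dendritic cell sums were higher, at 118 CPM in library 2 and 141 CPM in library 4, with 94.3 to 96.9 CPM in the rest, and so were fibroblast sums, at 15762 CPM and 17098 CPM with 14269 to 14518 CPM in the rest. The part of these cells in the result was not tested. In the other 4 libraries, which form 1 near-identical set, the log2 fold change of Nlrp3 over control was 2.87, as given above.

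**Figure D4:**
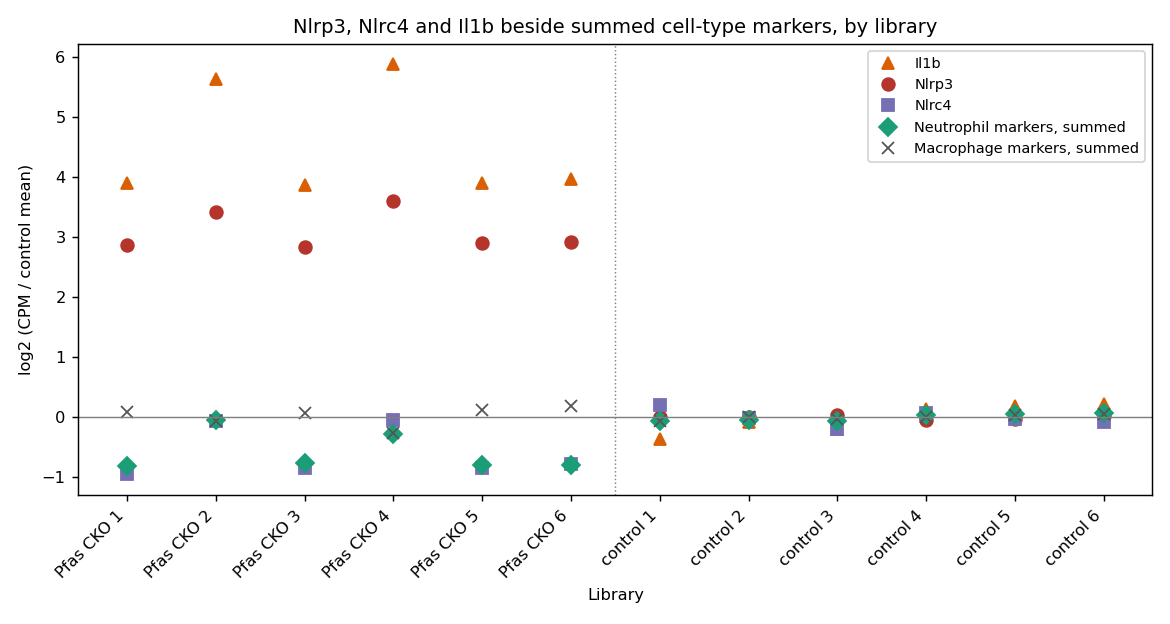
Log2 of CPM over the control mean, by library, for Nlrp3, Nlrc4 and Il1b and for the summed neutrophil and macrophage markers. Il1b, Nlrp3, Nlrc4 and the neutrophil sum are all higher in Pfas CKO 2 and 4 than in the other 4 Pfas CKO libraries, and the macrophage sum is lower.

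Beyond the 10 genes, the other sensors mostly fell. Of 15 genes listed, 11 were tested, of which 3 were higher and 8 lower in Pfas CKO by edgeR's test, beside 33.4% higher and 35.2% lower over all genes, with a median log2 fold change of -1.04. Nlrp12, Nlrp2, Nlrp6 and Nlrp9b were too low to test. With library totals alone 0 were higher and 8 lower, where all 13600 genes gave 2775 higher and 7202 lower. The largest fall was that of Nlrp1b, a sensor cleaved by anthrax lethal factor, with 0.769 ± 0.116 CPM in Pfas CKO against 7.00 ± 0.669 CPM in control. Nlrx1, a mitochondrial NLR protein, had 2.98 ± 0.703 CPM in Pfas CKO against 10.7 ± 1.40 CPM in control. Nlrc3, an inhibitory NLR protein, had 5.71 ± 0.943 CPM in Pfas CKO against 17.3 ± 0.974 CPM in control (SD, n = 6 each for these 3 genes). Nlrx1 and Nlrc3 fell in the summed fit too, with edgeR adjusted p-values of 0.000204 for Nlrx1 and 9.8e-05 for Nlrc3. The rises were those of Nlrc5, the MHC class I activator, by 0.32 on the log2 scale, of Nod1, the companion receptor of Nod2, by 0.26, and of Naip2 by 0.16, and on log2(TPM + 1) values the last 2 turned to -0.024 for Nod1 and -0.15 for Naip2, which was called lower there (limma adjusted p 0.0439).

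The Naip proteins bind the bacterial ligands that Nlrc4 answers, and 3 of 4 fell with it. Naip5, a flagellin receptor, had 9.20 ± 0.947 CPM in Pfas CKO against 18.7 ± 1.36 CPM in control. Naip6, likewise a flagellin receptor, had 3.71 ± 0.488 CPM in Pfas CKO against 7.64 ± 1.25 CPM in control (SD, n = 6 each for both). Naip1, which binds the needle protein of secretion systems, was near the detection limit with 0.277 CPM in Pfas CKO against 0.814 CPM in control, and its call was lost with near-identical libraries summed (edgeR adjusted p 0.0649). Naip2, which binds the inner rod protein, had 56.8 CPM in Pfas CKO and 50.8 CPM in control, and its call (edgeR adjusted p 0.0418) was lost when control 1, 2 or 3 or Pfas CKO 1, 3, 5 or 6 was left out. The Naip genes are related copies, as are Nlrp1a and Nlrp1b. How reads were divided among them is not stated, so their separate levels are uncertain.

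Genes that prime or hold back inflammasomes moved in both directions. Of 21 listed, Pydc3 and Pydc4 were not analysed here, and of the 19 tested 8 were higher, 7 lower and 4 not called, near the 68.6% called over all genes, with a median log2 fold change of 0.02. Irf1, a transcription factor of the interferon response, had 222 ± 22.6 CPM in Pfas CKO against 79.0 ± 1.87 CPM in control. Gbp5, a guanylate-binding protein known to promote Nlrp3 assembly, had 63.4 ± 8.44 CPM in Pfas CKO against 17.0 ± 1.26 CPM in control. P2rx7, the ATP-gated channel that triggers Nlrp3 in primed macrophages and named here after its values were seen, rose by 0.62 ± 0.0886 on the log2 scale, with an edgeR adjusted p of 1.54e-05.

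Among the falls, Pstpip1, which binds pyrin, moved opposite to Mefv, with 16.8 ± 4.35 CPM in Pfas CKO against 62.5 ± 8.08 CPM in control. Irf8, a myeloid transcription factor that drives Naip genes, had 28.0 ± 2.84 CPM in Pfas CKO against 57.2 ± 6.62 CPM in control. Dpp9, a protease that restrains Nlrp1, had 52.9 ± 3.77 CPM in Pfas CKO against 77.2 ± 5.76 CPM in control (SD, n = 6 each for these genes). Nek7, the kinase that Nlrp3 needs for assembly, had 125 ± 14.6 CPM in Pfas CKO and 121 ± 14.1 CPM in control, and the difference was not called (log2 fold change 0.04, edgeR adjusted p 0.679), although on log2(TPM + 1) values it was called lower (-0.24, limma).

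**Figure D5:**
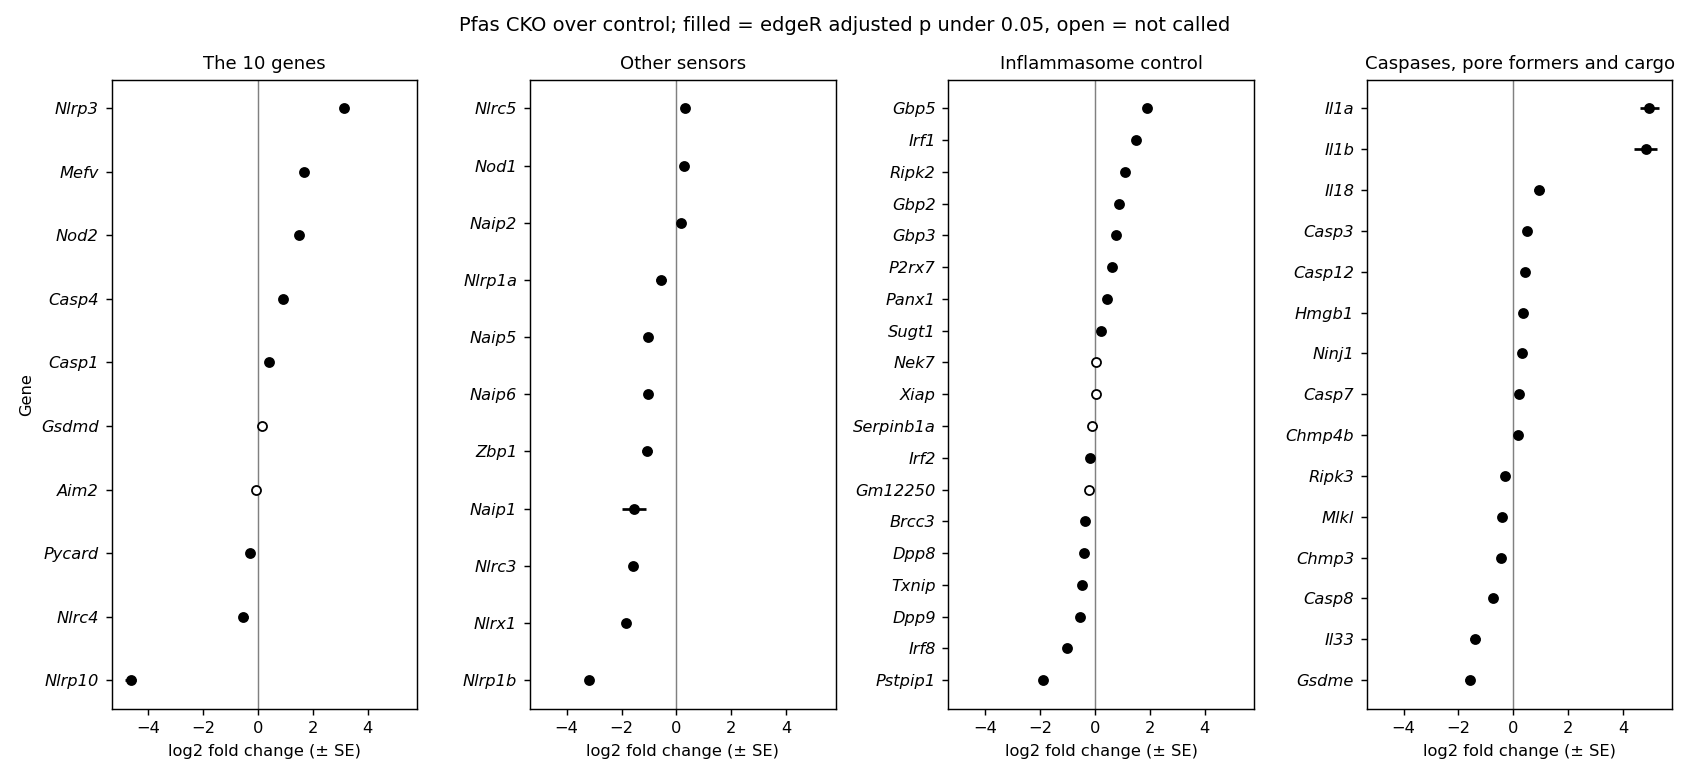
Log2 fold changes, Pfas CKO over control, with SE for the 10 genes and 3 wider lists; filled points passed an edgeR adjusted p of 0.05 and open points did not. The other sensors lie mostly below 0 (median -1.04), and the genes that prime or hold back inflammasomes lie around it (median 0.02).

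Of the caspases, pore formers and cargo, 15 of 17 genes were tested, with 9 higher and 6 lower, beside 33.4% higher and 35.2% lower over all genes, and a median log2 fold change of 0.21. Gsdma and Gsdmc were too low to test. With library totals alone 4 were higher and 6 lower, beside the 2775 and 7202 of all genes. The largest changes were those of Il1b, whose product caspase-1 cuts, and of Il1a, a cytokine set free when membranes break. Il1b had 952 ± 693 CPM in Pfas CKO against 33.8 ± 5.41 CPM in control, and Il1a had 929 ± 573 CPM in Pfas CKO against 29.8 ± 2.89 CPM in control (SD, n = 6 each). Library 2 of Pfas CKO held 1686 CPM of Il1b, library 4 held 1991 CPM, and the rest held 495 to 530 CPM, the same split as Nlrp3. Il18, whose product caspase-1 also cuts, was low in both groups, with 4.01 ± 1.02 CPM in Pfas CKO against 2.10 ± 0.466 CPM in control. Its call (log2 fold change 0.93, edgeR adjusted p 0.000386) was lost with near-identical libraries summed (edgeR adjusted p 0.0619). Il33, a further cytokine of the list named after its values were seen, went the other way. It had 176 ± 70.7 CPM in Pfas CKO against 463 ± 52.4 CPM in control (SD, n = 6 each). Its log2 fold change was -1.39 (edgeR adjusted p 1.24e-05), and -1.07 with near-identical libraries summed (edgeR adjusted p 0.0111).

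Genes for membrane rupture, membrane repair and other forms of death moved in both directions. Ninj1, which breaks the membrane after pores form, had 317 ± 19.4 CPM in Pfas CKO against 257 ± 7.01 CPM in control, a call lost in the summed fit (edgeR adjusted p 0.0961). Gsdme, a gasdermin cut by caspase-3, fell to 1.19 ± 0.257 CPM in Pfas CKO, against 3.61 ± 0.588 CPM in control. Casp8, which links death receptors to apoptosis, fell to 55.1 ± 2.53 CPM in Pfas CKO, against 91.3 ± 5.15 CPM in control. Chmp3, part of the ESCRT machinery that repairs pores, fell to 66.1 ± 5.33 CPM in Pfas CKO, against 90.3 ± 4.75 CPM in control (SD, n = 6 each for these genes).

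The genes nearest to 3 of the 10 in pattern were found by the root mean square difference of centred log2 CPM over the 12 libraries, among 11432 genes with at least 2 CPM on average. Nearest to Nlrp3 were Saa3 (0.0995), Ccl3 (0.116) and Csf3 (0.116), an acute-phase protein, a chemokine and the granulocyte growth factor. Nearest to Casp1 were Api5 (0.0633), Hook3 (0.0638) and Cdc27 (0.0641). Nearest to Gsdmd were Cdc42bpb (0.0614), Crip2 (0.0629) and Bap1 (0.0652). The values are log2 units and a description of likeness.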

How the data were processed

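RNA was measured in 6 Pfas CKO and 6 control libraries, grouped by the genotype in the labels. The deposited table gives, per the file headers, estimated counts per gene, not normalized by the authors, and TPM scaled per library by the authors. The submitters' processing notes name GRCm38 throughout and, except for control 1 to 3, Bowtie2, RSEM and DESeq2. They give no annotation or strand setting. Blank values in control libraries left 17704 of 18771 genes, and 13 columns with FPKM were not used. Estimated counts were rounded and tested in edgeR 4.0.16 under R 4.3.3 (TMM, filterByExpr, glmQLFit and glmQLFTest, group only), with Benjamini-Hochberg adjustment over 13600 genes. CPM values are TMM-scaled, and each SE is the log2 fold change over the root of its F statistic. The test was checked on simulated counts of independent libraries with a common dispersion and few changed genes. That check cannot speak for near-identical sets or for data in which most genes are called. DESeq2 1.42.0 and limma 3.58.1 (TPM plus a pseudocount of 1 or 0.1, mean TPM 1 or more) were among the alternatives. Depth was 20320133 to 20950074 counts, so 3 counts are 0.157 to 0.161 CPM in Pfas CKO and 0.131 to 0.134 CPM in control. Positions are from GENCODE M21.

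The 10 genes, the wider lists and the markers were chosen with earlier results of these data known. Named were the 10 genes, Pfas, from each wider list the called genes with the 3 smallest p in each direction, the Naip genes, Nek7, Il1b and Il18, and the 3 genes nearest in pattern to Nlrp3, Casp1 and Gsdmd. Not every gene of that rule is reported here. Casp12, P2rx7 and Il33, and the marker genes given as examples, were named after their values were seen.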

Additional observations from a re-analysis of the deposited data

Results flagged for a closer look

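Among 68 groups of 6 libraries checked, over the 10 genes and the other named genes, 3 held a library far from the other 5, and chance alone flags about 1 in 20 such groups. All were Pfas CKO 2, and no group of the 10 genes was among them. Ripk2, the kinase downstream of Nod2, was 73.6 CPM in Pfas CKO 2 and 87.5 to 94.1 CPM in the other Pfas CKO libraries. Irf8, a myeloid transcription factor, was 33.5 CPM in Pfas CKO 2 and 25.7 to 28.4 CPM in the others. Naip1, a sensor partner of Nlrc4, was 0.741 CPM in Pfas CKO 2 and 0 to 0.268 CPM in the others, so its higher value rests on few counts.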

How the results depend on the processing

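Over 25 alternatives Nlrp3 (log2 fold change 2.77 to 3.33), Mefv (1.35 to 1.74), Nod2 (1.11 to 1.56) and Casp4 (0.62 to 1.03) kept direction and call, as did Nlrp10 (-4.87 to -1.95) in the 24 that could test it. The cause of the changes below was not tested, except that summing leaves fewer samples. Library totals, log2(TPM + 1), log2(TPM + 0.1) and summed libraries called 2775, 2279, 2271 and 2783 genes higher and 7202, 7280, 7263 and 2877 lower. In that order the other sensors gave 0, 0, 0 and 1 higher and the caspases, pore formers and cargo 4, 4, 4 and 4. Other sensors lower were 5 at a mean of at least 5 CPM, genes that prime or hold back inflammasomes gave 11 lower on both TPM scales, and 1 of the 10 genes was lower with libraries summed.

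With libraries summed, the call was lost for Nlrc4 (-0.30), Pycard (-0.32) and Casp1 (0.36), and Casp1 also lost it on both TPM scales (0.13 and 0.13). Pycard was -0.26 without control 1 to 3. Aim2 was called lower with library totals (-0.31), on TPM (-0.37 and -0.38) and without control 1 to 3 (-0.18), and was 0.038 without control 4 to 6. Gsdmd was called higher with RLE scaling (0.16), DESeq2 (0.16), without control 1 to 3 (0.23) and without Pfas CKO 2 and 4 (0.18), and was -0.087 with library totals and -0.14 and -0.14 on TPM. Leaving out 1 library gave 0.12 to 0.17 for Gsdmd, called without control 2, control 3, Pfas CKO 3 or Pfas CKO 4 (edgeR adjusted p 0.0229 to 0.133 over all 12). Naip2 turned to -0.071, -0.15 and -0.16 and Nek7 to -0.19, -0.24 and -0.25 with totals and TPM, and on both TPM scales limma called Naip2 (adjusted p 0.0439 and 0.0436) and Nek7 lower. Nod1 turned to -0.024 and -0.025 on TPM. Nek7 was also -0.10 without control 1 to 3, -0.018 summed and -0.0015 to 0.095 leaving out 1 library, lowest without control 2.

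The deviations of same-numbered libraries from their group means correlated weakly (-0.0961 to 0.197). Only Pfas CKO 2 and 4 correlated best with the control library of the same number (0.197 and 0.194). The labels state no pairing, and the near-identical sets may hide a shared source, so the check cannot exclude it. With a replicate block the log2 fold changes were 3.09 for Nlrp3, -4.64 for Nlrp10, -0.57 for Nlrc4, -0.07 for Aim2, 1.67 for Mefv, -0.30 for Pycard, 0.42 for Casp1, 0.93 for Casp4, 0.14 for Gsdmd and 1.51 for Nod2, and no call of the 10 changed. At this depth Nlrp10, Naip1 and Ly6g in Pfas CKO lie near the level of 3 counts.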
